A study of Mus musculus with 2 samples.

Results

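Elastic fibres give skin its recoil. They consist of a core of cross-linked elastin laid down on a scaffold of fibrillin microfibrils, with fibulins and microfibril-associated glycoproteins between them, and lysyl oxidases cross-link the elastin. Tenascin X is a large glycoprotein of the dermal matrix that binds collagen fibrils, and its loss in people causes a form of Ehlers-Danlos syndrome with stretchable skin. The genes described are Eln, Fbn1, Fbln1, Fbln2, Fbln5, Mfap2, Mfap5, Loxl1 and Tnxb, 9 in all. They were taken from the platform annotation through probe sets that carry 1 gene symbol, so that a probe set shared by differently named genes was left out. By this rule 7 of the 9 had a probe set, out of 8251 genes with one on the array, and 13 probe sets represented them. Fbn1, which encodes fibrillin-1, and Fbln5, which encodes the fibulin that tethers elastin to cells, had no probe set under this rule and were not analysed here.

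The mice were newborn and either lacked keratin 5 (K5-/-, a model of the blistering disorder epidermolysis bullosa simplex) or were wild type. Keratin 5 is the basal keratinocyte keratin. The labels name no strain. Skin RNA of 6 animals was pooled within each genotype and each pool was read on 1 array, so no value has a biological replicate and no test between the genotypes was possible. The label of the source is epidermis, while titles and protocol speak of skin, and transcripts of dermal fibroblasts (Col1a1, Col1a2, Col3a1, Dcn) gave signals between 22398 and 48707 units on the arrays, so dermis was present in both pools. In bulk tissue, a change in the number of cells of a type and a change in RNA per cell cannot be told apart.

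Signals are in the units of MAS5, the Affymetrix algorithm that condenses the probes of a set into 1 value, after both arrays were scaled to the same trimmed mean. A floor of 246.7 units, the 40th percentile of all values, was applied to low signals before log2 was taken. A gene above the floor on at least 1 array counted as measured, which held for 5976 genes, and the probe set with the highest mean signal represented a gene with several. Of those genes 2.24% differed at least 2-fold (1.54% higher and 0.703% lower in the knockout), and 53.9% had a log2 ratio of knockout over wild type above 0. The higher and lower counts were 92 and 42, and they became 79 and 59 with quantile normalization and 80 and 59 with a lowess correction. Technical error was gauged from genes with several probe sets. In 838 genes, 2 or more were above the floor on each array, and their log2 ratios had a pooled within-gene standard deviation of 0.30, called the within-gene spread here. It holds no variation between animals or hybridisations. The targeted gene did not serve as a check of the labels, since Krt5 read 81.2 units (knockout) and 46.6 units (wild type), both under the floor.

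Upstream sequence is shown for the 2 members at the ends of the observed range that have an entry in the promoter table, Tnxb with the highest ratio and Mfap2 with the lowest. Each line gives the 250 bases before a RefSeq start site of assembly GRCm38.p6, 5′ to 3′ on the plus strand, and capitals mark matches to the motifs searched. For Tnxb (chr17:34670285-34670534) the start site used lies inside the annotated extent of the gene, 10082 bases downstream of its annotated 5′ end. The window may therefore not be a promoter of Tnxb. For Mfap2 (chr4:141010174-141010423) the start site is the first base of the annotated gene.
Tnxb: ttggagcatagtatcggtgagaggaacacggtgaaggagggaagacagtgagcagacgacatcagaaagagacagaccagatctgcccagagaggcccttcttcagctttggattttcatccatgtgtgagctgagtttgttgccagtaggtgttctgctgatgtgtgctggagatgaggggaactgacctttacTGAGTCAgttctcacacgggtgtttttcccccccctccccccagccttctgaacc
Mfap2: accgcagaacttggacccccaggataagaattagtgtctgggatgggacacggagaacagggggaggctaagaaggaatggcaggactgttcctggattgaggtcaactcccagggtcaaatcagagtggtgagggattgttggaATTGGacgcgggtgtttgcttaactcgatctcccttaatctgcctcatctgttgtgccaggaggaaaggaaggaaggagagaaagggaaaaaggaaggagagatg
The motifs, searched on both strands, were the TATA box (TATAAA), the GC box (GGGCGG), the CCAAT box (CCAAT), the AP-1 site (TGANTCA), the cyclic AMP response element (TGACGTCA) and the Egr site (GCGGGGGCG). The Tnxb window held 1 of them, TGAGTCA, an AP-1 sequence that begins 55 bases before the start site. A TGANTCA match was present in 6.75% of the 32851 RefSeq windows of the same length. The Mfap2 window held 1 CCAAT match, read on the minus strand as ATTGG, and 33.8% of windows held one. Windows of the other members with an entry, Fbln1 and Fbln2, held 0 and 1 match, the latter a GGGCGG sequence found in 32.7% of windows. Eln, Mfap5 and Loxl1 were the other measured members. These matches describe letters in a window and were not tested for binding.

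In the knockout skin pool the elastin gene, the elastin cross-linking gene Loxl1, the microfibril glycoprotein gene Mfap5 and the tenascin X gene Tnxb were above the wild type pool. The fibulin genes Fbln1 and Fbln2 and the microfibril gene Mfap2 were close to it. For Mfap5 this rested on probe set 99518_at, with the other at 0.03, and the wild type signal of Loxl1 was only 1.34 times the floor. Tnxb was the 1 member of 7 past 2-fold, at 2.23-fold higher, and 0 members were 2-fold lower. That count is to be read against 2.24% of all measured genes past 2-fold. Log2 ratios were above 0 for 6 of 7 members against 53.9% of all genes. The count was 6 of 7 too with quantile normalization (49.4% of all genes) and lowess correction (50.5%), 5 of 7 with the mean over probe sets (54.1%), and 4 of 7 with ratios centred on fibroblast markers (36.4%). The median log2 ratio was 0.61, against 0.04 over all measured genes. It is the value of 1 of the Mfap5 probe sets, and it was 0.32 with the mean over probe sets, 0.36 under a 60th-percentile floor, and 0.37 with plain probe sets only. By probe set, all 13 lay above the floor on both arrays, 10 had a ratio above 0 and 3 below it, which became 9 and 4 with quantile normalization and lowess correction.

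**Figure D1:**
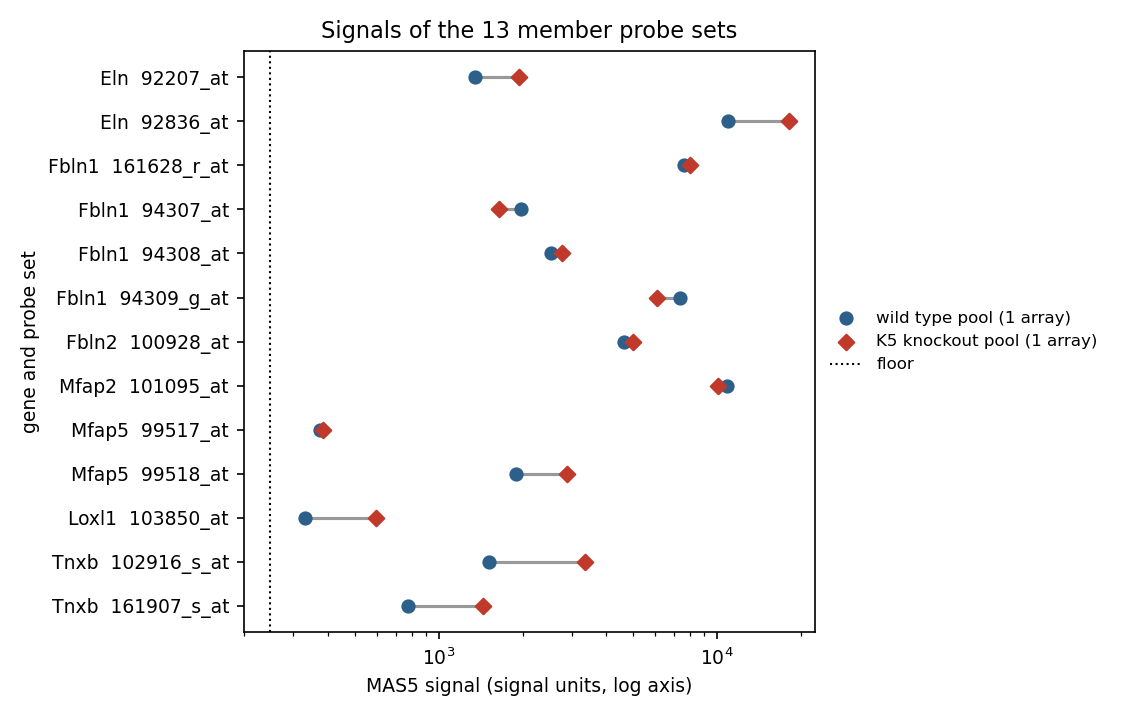
MAS5 signal (log axis, signal units) of the 13 probe sets of the 7 measured genes on the wild type array (circles) and the K5 knockout array (diamonds), with the floor of 246.7 units as a dotted line. Each point is 1 array of 1 RNA pool. Both probe sets of Tnxb and of Eln lie higher in the knockout, while those of Fbln1 differ in direction.

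Elastin is the polymer of the fibre core. Its probe set 92836_at read 18082 units in knockout skin and 10942 in wild type skin, and the other, 92207_at, read 1941 and 1350. The log2 ratios were 0.72 (1.65-fold) and 0.52 (1.44-fold). They differed from each other by 0.20, and both were higher in the knockout. The median gap was 0.24 over the 741 genes with exactly 2 probe sets above the floor on each array. Among measured genes Eln ranked 247th from the highest ratio by 92836_at, while 10.1% of measured probe sets had a higher ratio than 92207_at. Ratios as high as that of 92836_at were scarce among genes of its signal level. Of 122 genes with a mean log2 signal within 0.5 of its own, 3, Eln included, had a ratio at least as high. The central 95% of these genes ran from -0.53 to 0.64. Both Eln probe sets are plain and 92836_at lay far above the floor. The plain setting and the other floor percentiles therefore could not change its value. Over all alternatives run, the log2 ratio of Eln stayed between 0.57 and 0.79.

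Loxl1 encodes lysyl oxidase-like 1, which cross-links tropoelastin and is needed to renew elastic fibres in adult tissue. Its single probe set, 103850_at, read 596 units in knockout skin and 330.4 in wild type skin, a log2 ratio of 0.85 (1.80-fold). The wild type signal was only 1.34 times the floor. Ratios of this size were less rare among genes this dim: 69 of 1289 genes of like signal (5.35%) had one at least as high. With a pseudocount equal to the floor in place of the floor, the log2 ratio was 0.55, and a floor at the 60th percentile left Loxl1 at the floor on both arrays.

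The microfibril-associated glycoproteins MAGP-1 and MAGP-2, the products of Mfap2 and Mfap5, bind fibrillin and differed in their ratios. Mfap5 had a probe set, 99518_at, that read 2899.7 units in knockout skin and 1894 in wild type skin, which gives a log2 ratio of 0.61 (1.53-fold). Its other probe set, 99517_at, read 384 and 375, a log2 ratio of 0.03 that turned to -0.09 with quantile normalization and -0.08 with lowess correction, and lay only 1.56 and 1.52 times above the floor. The probe sets thus differed by 0.58, a gap reached by 115 of 741 genes with exactly 2 such probe sets (15.5%), and the mean over both was 0.32. Mfap2 read 10038 units in knockout skin and 10889 in wild type skin on its single probe set 101095_at. This log2 ratio of -0.12 was the lowest of the members, and 66.6% of measured genes had a higher one. It was below 0 under every setting run, from -0.28 when centred on fibroblast markers to -0.04 with the lowess correction. Its size was smaller than the within-gene spread of 0.30.

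Fibulins bridge microfibrils, elastin and basement membranes. Fbln1 had 4 probe sets, which did not share a direction. Probe set 161628_r_at read 7980.5 units in knockout skin and 7613 in wild type skin (log2 ratio 0.07), and 94308_at read 2766 and 2541 (0.12). The other two were lower in the knockout: 94307_at read 1647 against 1983 (-0.27) and 94309_g_at read 6066 against 7342 (-0.28). The spread from lowest to highest ratio was 0.40, against a median of 0.47 for the 10 genes with 4 such probe sets. The mean over the probe sets was -0.09, so the sign of Fbln1 depended on which one was used. Fbln2, a fibulin of skin basement membrane and elastic fibres, read 4974 units in knockout skin and 4615 in wild type skin on 100928_at, a log2 ratio of 0.11 (1.08-fold), and -0.05 or 0.06 when centred on fibroblast markers by their brightest probe set or by their mean over probe sets. Of the 7 members, Fbln1, Fbln2 and Mfap2 had log2 ratios closer to 0 than the within-gene spread of 0.30.

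**Figure D2:**
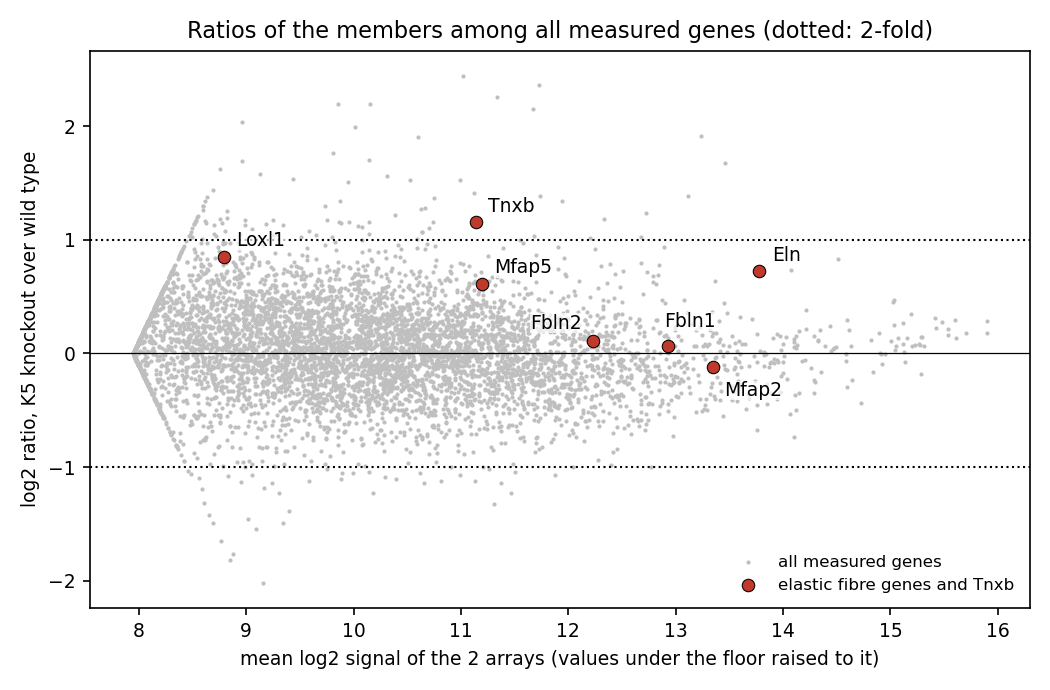
Log2 ratio of knockout over wild type against mean log2 signal for the 5976 measured genes (grey) and the 7 members (red), 1 point per gene, with 2-fold as dotted lines. Tnxb at 1.15 lies above 2-fold, Eln at 0.72 lies near the top of the genes of its signal level, and Fbln1, Fbln2 and Mfap2 lie among the bulk, although the signs of Fbln1 and Fbln2 turn when ratios are centred on fibroblast markers by their brightest probe sets.

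Tenascin X had the highest ratio. Probe set 102916_s_at read 3366.5 units in knockout skin and 1513 in wild type skin, a log2 ratio of 1.15 (2.23-fold). The other, 161907_s_at, read 1437 and 774, a log2 ratio of 0.89 (1.86-fold). Both were higher in the knockout and they differed by 0.26, against a median gap of 0.24 for genes with exactly 2 probe sets above the floor. Tnxb ranked 55th from the highest ratio of 5976 genes. Of 1150 genes of like signal, 7, Tnxb included, had a ratio at least as high (0.609%).

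Both Tnxb probe sets carry the suffix _s_, which marks probes that can match more than 1 transcript, and with plain probe sets only Tnxb had no value and 0 members were past 2-fold. Its log2 ratio was 1.02 as the mean over probe sets and 1.04 with a pseudocount. When centred on fibroblast markers it was 0.99, just under 2-fold (1.10 with these markers, but not Tnxb, averaged over probe sets). Tnxb lies in the class III region of the major histocompatibility complex, between the transcription factor gene Atf6b and the complement gene C4b in the RefSeq gene order. Its neighbours had smaller ratios: Atf6b read 1192 units in knockout and 1147 in wild type skin (log2 ratio 0.06) and 656 and 823 on a second probe set (-0.33), the steroid hydroxylase gene Cyp21a1 1570.03 and 1287 (0.29), Stk19 1073 and 730 (0.56), and the thioesterase gene Ppt2 589 and 686 (-0.22), and Dxo 1309 and 1378 (-0.07). Fkbpl and Notch4 were at the floor on both arrays. C4b was not analysed here.

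Of the genes that assemble microfibrils and elastin, 10 of 19 listed had a probe set and 9 were measured. Their ratios were above 0 in 8 and below 0 in 1, with a median log2 ratio of 0.35, and 0 of 9 passed 2-fold. Fibrillin-2, the fibrillin of developing tissue, read 971 units in knockout and 684 in wild type skin (0.51). Mfap4, a microfibril-associated glycoprotein, read 2529 and 1781 (0.51), but its other probe set was under the floor on both arrays. The latent TGF-beta binding proteins sit on microfibrils. Ltbp2 had the highest ratio of the list, 0.64 (447 against 287), Ltbp3 was at 0.58 and Ltbp4, which promotes elastin deposition, at 0.35, while Ltbp1 was at the floor on both arrays. The wild type signals of Ltbp2 and Ltbp3, 287 and 268 units, lay near the floor. Versican, a large proteoglycan that binds microfibrils, had the lowest ratio, -0.21 (2958 against 3413).

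The list of lysyl oxidases and helpers had 3 measured genes of 6 listed, with log2 ratios between 0.37 and 0.48 and 0 past 2-fold. Lox, the main lysyl oxidase of collagen and elastin, read 4549 units in knockout and 3296 in wild type skin (0.46), with its other probe set under the floor. Atp7a, which loads copper into lysyl oxidases, was at 0.48 (438 against 314), and Bmp1, which activates lysyl oxidase and trims procollagen, at 0.37 (2162 against 1675). The wild type signal of Atp7a lay near the floor, and its other probe set was under the floor on both arrays. Both probe sets of Bmp1 gave 0.37.

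Genes around collagen fibrils, the partners of tenascin X, differed less than Tnxb. Of 15 measured, 11 had ratios above 0 and 4 below 0, with a median of 0.16 (0.07 to 0.21 over the alternatives) and 0 past 2-fold. Among the 11, Col12a1 (286 against 176) and Fmod (255 against 221) were above the floor in the knockout only. Their wild type signals were raised to the floor, so their ratios are lower bounds whose sign was fixed by the filter. With only genes above the floor on both arrays the median was also 0.16. Thbs2, a matricellular protein gene that affects collagen fibril shape, had the highest ratio, 0.93 (3709 against 1947). Collagen I genes Col1a1 and Col1a2 were at 0.31 and 0.34, Col3a1 at 0.27 and Col5a1, which nucleates fibrils, at 0.30, although 2 other Col3a1 probe sets were at -0.04 and -0.06. Tenascin C, the tenascin of wounds, read 836 units in knockout skin and 854 in wild type skin, a log2 ratio of -0.03, with a second probe set under the floor. Dermatopontin (Dpt) had the lowest ratio of the list, -0.30, and lumican was at -0.22.

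Elastin-degrading enzymes and their inhibitors were mixed, with 6 of 9 measured genes above 0, a median of 0.28 and 0 past 2-fold. The median fell to 0.15 with quantile normalization, 0.16 with lowess correction and 0.03 under a 60th-percentile floor. Among the enzyme genes, Elane (0.44), Ctss (0.32) and Cela1 (0.28) were above 0, while Ctsk (-0.13), Ctsl (-0.11) and Htra1 were below 0. The inhibitor genes Timp1, Timp2 (0.45) and Timp3 (0.03) were all above 0. Timp1 had the highest ratio of the list, 0.52 (2215 against 1546), and Htra1, a serine protease gene, the lowest, -0.31. Mmp2, Mmp7, Mmp9, Mmp12 and Adamts1 were at the floor on both arrays. Genes for elastin receptors and microfibril ligands had 6 of 9 above 0 and a median of 0.16 (0.09 to 0.17 over the alternatives). Glb1, the gene that also yields the elastin binding protein, had the highest ratio, 0.35, and Bmp7, whose product is stored on fibrillin microfibrils, the lowest, -0.87 (1091 against 1990).

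**Figure D3:**
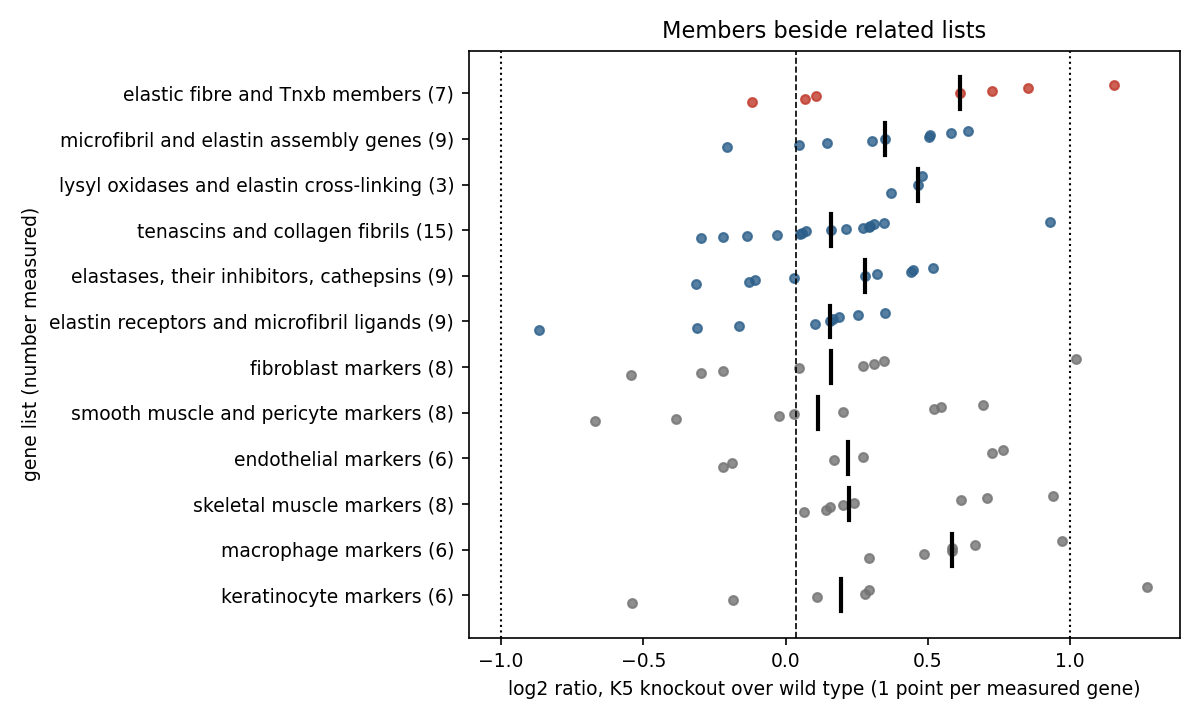
Log2 ratio of knockout over wild type for each measured gene of the members (red), of related lists (blue) and of cell type markers (grey), with the list median as a black bar, the median of all measured genes as a dashed line and 2-fold as dotted lines. The members span -0.12 to 1.15 with a median of 0.61, and the macrophage markers, all above 0, have a median of 0.58.

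Markers of cells that make or surround the matrix gave the following on the same arrays. Of 8 fibroblast markers 5 were above 0 and 3 below, with a median of 0.16 (0.05 to 0.19 over the alternatives) and a summed signal of 183147 units in knockout and 159078 in wild type skin. Pdgfra, a fibroblast receptor gene, was the 1 past 2-fold at 1.02 (6701 against 3305), with a bound of 0.34 from a dim second probe set, and Thy1 was the lowest at -0.54. The fibroblast markers Col1a1, Col1a2, Col3a1, lumican and Dpt are also in the collagen fibril list, and Dcn is in the microfibril list. The medians of these lists are therefore not independent. Smooth muscle and pericyte markers had 5 of 8 above 0 and a median of 0.11 (0.03 to 0.21 over the alternatives), with summed signals of 11986 and 12115. The smooth muscle actin gene Acta2 was at -0.67, Pdgfrb at 0.70 (459 against 284, the latter near the floor), and Cnn1 was at the floor on both arrays. Endothelial markers had 4 of 6 above 0 and a median of 0.22 (5069 against 4702 summed, with Flt1 at the floor on both arrays), but -0.12 with the floor at the 60th percentile. Kdr was the highest at 0.77 and Tie1 the lowest at -0.22, with a second Tie1 probe set at 0.68. Skeletal muscle markers had 8 of 8 above 0 and a median of 0.22 (102620.0 against 87661 summed), from 0.06 for Acta1 to 0.94 for Myh8. Macrophage markers had 6 of 6 above 0 and a median of 0.58 (8532 against 5732 summed), from 0.29 for Cd68 to 0.97 for Adgre1. Adgre1 read 273 units in wild type skin, near the floor, and its other probe set was under the floor on both arrays.

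Adipocyte markers had 3 of 4 above 0 and a median of 0.10 (12913 against 11365 summed), from -0.20 for Fabp4 to 0.36 for Lpl. Cartilage markers had 2 of 2 measured genes above 0, Col9a1 at 0.57 and Acan at a bound of 0.22 (1593 against 1117 summed), with Col2a1 and Matn1 at the floor. Schwann cell markers had 0 of 2 above 0 (1608 against 1679 summed), Sox10 at -0.03 and Mbp at -0.19, but a second Mbp probe set read 493 units in knockout and 266 in wild type skin (0.89). S100b was at the floor. Keratinocyte markers had 4 of 6 above 0 and a median of 0.20 (0.11 to 0.22 over the alternatives, 169229 against 153400.0 summed). Ivl was past 2-fold at 1.27, the basal keratinocyte factor Trp63 had the lowest ratio, -0.54, and Krt5, Krt14 and Krt15 were at the floor. The part of these cell types in the ratios of Tnxb, Loxl1, Eln and Mfap5 was not tested.

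Centring on the fibroblast markers asks how the members stood relative to other dermal transcripts. After it, Tnxb was at 0.99, Loxl1 at 0.69, Eln at 0.57 and Mfap5 at 0.46. Fbln2, Fbln1 and Mfap2 were then at -0.05, -0.09 and -0.28. The value subtracted, 0.16, depended on the probe sets: with each marker as the mean over its probe sets it was 0.05. After that centring Tnxb was at 1.10, past 2-fold, Fbln1 at 0.02 and Fbln2 at 0.06, both above 0, and Mfap2 at -0.17. The members, however, kept their brightest probe set in both centrings. As means over their own probe sets, before any centring, Tnxb was at 1.02, Mfap5 at 0.32 and Fbln1 at -0.09. A centring with members and markers both as means was not run. Centring takes the same value from every member, so it could not change their order. The 4 highest members stayed above 0 because each exceeded the value subtracted, which is no separate evidence about them. The fibroblast markers themselves ran from -0.54 (Thy1) to 1.02 (Pdgfra). The signs of Fbln1 and Fbln2 and the 2-fold call of Tnxb were not settled by the centrings.

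**Figure D4:**
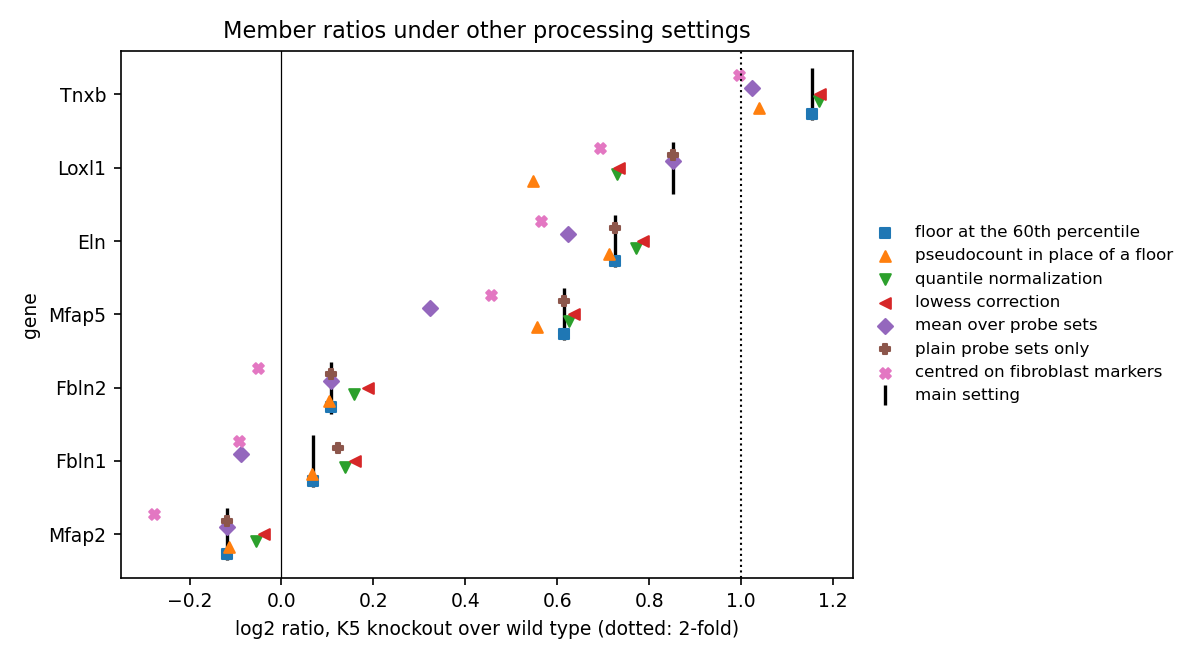
Log2 ratio of knockout over wild type of the 7 members under the main setting (black bars) and 7 alternatives (symbols), with 2-fold as a dotted line. Tnxb runs from 0.99 to 1.17, Loxl1 from 0.55 to 0.85, Eln from 0.57 to 0.79 and Mfap5 from 0.32 to 0.64, while Fbln1 and Fbln2 take both signs.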

How the data were processed

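RNA of K5 knockout and wild type newborn skin, 1 pool of 6 animals per genotype, was labelled from 2 µg and read on 2 arrays. The deposited values are linear intensities, 1 per probe set, made by the authors with MAS5, per the submitters' processing notes; neither its version nor its scaling target is given in the sources used here, and detection calls were not used. The table holds 12488 probe sets, 66 of them controls, and 10833 of the rest carry 1 gene symbol. Both arrays were scaled to a common 2% trimmed mean over non-control probe sets (993.9 and 994.2 before scaling), a floor was set at the 40th percentile, and log2 ratios of knockout over wild type were taken (Python 3.11.15, pandas 2.3.3, statsmodels 0.14.6 for lowess). With 1 array per group no test was run, results are sizes, and the number of arrays limits every value. MAS5 scaling hides a difference in total RNA per cell.

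All members were named with every probe set. Genes of the other lists were named where they differed at least 2-fold, held the highest or lowest ratio of their list, were close relatives of a member or were listed as neighbours of Tnxb; Dxo, Ltbp1, Ltbp3, Ltbp4, lumican, the collagen genes and some other genes and markers were named after their values were seen. Members and lists were chosen with earlier results of these data known. Entrez identifiers of all 7 measured members matched a RefSeq gene table of GRCm38.p6, used for names and gene order. The script was tested on simulated data.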

Additional observations from a re-analysis of the deposited data

How the results depend on the processing

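Of 11 alternatives, 9 were planned and 2 centrings on fibroblast markers were chosen after seeing the data. A value was taken to have moved when it shifted by more than the within-gene spread of 0.30, a count when it changed over 1.5 times. The members past 2-fold went from 1 to 0 with plain probe sets only, because Tnxb then has no value. The count was also 0 when centred on fibroblast markers, where Tnxb was at 0.99. With those markers, but not the members, averaged over probe sets, Tnxb was at 1.10 and the count was 1. The members' median stayed between 0.32 (mean over probe sets) and 0.64 (lowess correction). Loxl1 moved to 0.55 with a pseudocount and gave no value with the floor at the 60th percentile. The endothelial median moved to -0.12 with that floor. The share of all measured genes past 2-fold was 4.23% with the floor at the 25th percentile, 1.48% with the floor at the 60th and 0.904% with a pseudocount. The 25th and 60th percentile floors left 7061 and 4269 genes measured, against 5976 in the main setting. A pseudocount added to both signals by its arithmetic draws ratios toward 0 for genes above the floor on both arrays. No paired analysis was possible because each group has 1 array, and for the same reason no array could be left out. Signal over background limits Loxl1 and the Mfap5 probe set 99517_at. It also limits genes of the other lists, among them Ltbp2, Ltbp3, Atp7a, Adgre1 and Pdgfrb.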
